A study of Caenorhabditis elegans with 2 samples.

Results

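The genes described here are 10 genes of Caenorhabditis elegans that encode core proteins of TOR and insulin signalling, set against where GMEB-1 was found on the genome. They are daf-15, rict-1, let-363, rsks-1 and raga-1 of the TOR pathway, and daf-2, age-1, pdk-1, akt-1 and daf-16 of the insulin pathway, taken by name from the Ensembl annotation of build WBcel235 (ce11), release 115. They are 10 of 19973 protein-coding genes on the nuclear chromosomes. A gene was counted as having a summit where the summit of a GMEB-1 region, the position that the authors' peak caller gave as its highest point, lay in the gene or in the 2 kb upstream of its start.

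GMEB-1 is named for its likeness to the GMEB proteins of mammals, DNA-binding factors first found at a regulatory element of glucocorticoid response, and these carry a SAND domain that contacts DNA. Chromatin immunoprecipitation and sequencing was done on eGFP-tagged GMEB-1 in mixed-sex larvae of the L2 stage, as whole animals. There was 1 group with 2 biological replicates, both of strain OP343, in which the unc-119(ed3) mutant background carries the integrated transgene wgIs343, so the protein measured was a tagged transgene product and no other genotype, stage or treatment was compared. Whole animals mix all tissues, so neither the cells in which GMEB-1 lay at a gene nor the share of cells can be read from these lists.

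TOR is a protein kinase that joins nutrient supply to growth. In the complex TORC1 it works with the Raptor protein DAF-15, amino acids reach it through Rag GTPases such as RAGA-1, and S6 kinase (RSKS-1) is one of its substrates, while TORC2 holds the Rictor protein RICT-1. In worms the insulin receptor DAF-2 acts through the phosphoinositide 3-kinase AGE-1 and the kinases PDK-1 and AKT-1 to keep the FOXO factor DAF-16 out of the nucleus, and the pathway is known for its control of dauer formation and lifespan.

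Of the 10 genes, 7 had at least 1 summit in the authors' list of reproducible regions, called the IDR list after the irreproducible discovery rate by which it was filtered, against 22.1% of all protein-coding genes (4419 of 19973). The 7 genes were daf-15, rict-1, let-363, rsks-1, daf-2, pdk-1 and daf-16, or 4 of 5 TOR genes and 3 of 5 insulin genes. They held 12 summits, 6 at each pathway. The genes are long, and longer windows held summits more often. In the quartile of longest windows, from 5636 to 104756 bp, 7 of 9 of these genes had a summit, against 31.2% of the protein-coding genes there (1560 of 4993). The gene outside that quartile was raga-1, which had none. Per length, the 10 windows held 0.730 summits per 10 kb (12 in 164.5 kb), and all protein-coding windows held 0.492 per 10 kb. By gene the density ran from 0 at 3 genes, through 0.355 at daf-16 and 0.486 at rict-1, to 2.31 per 10 kb at pdk-1. Because the genes were chosen with earlier results of these data known, these counts are descriptions and carry no test.

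The sequences shown here are those around a selection of the summits, and counts over all summits of these genes follow below. No window of let-363, which had the strongest summit, or of daf-16 is shown. The windows of the nearer rsks-1 summit and of the daf-2 summit farthest into the gene held none of the motifs and are not shown either. Those shown are the strongest summit of daf-15, rict-1, rsks-1, daf-2 and pdk-1, and one more summit each of daf-2 and pdk-1 whose windows held the most motifs. Each is 101 bases of the RefSeq genome of WBcel235 centred on the summit and read 5′ to 3′ on the strand of the gene. Capitals mark matches, on either strand, to 8 short motifs. The first of them was ACGT and the second was the palindrome TACGTA, which contains it. The other 6 were taken from 6-mers that an earlier analysis of these same data had found at summits, so their presence is no independent evidence. Of these, the motif ACGCGC and the motif GAGCGC end in the same letters. The motif AGACGC overlaps with the motif ACGCAG, and it also overlaps with the motif CGTCTC when that one is read on the other strand. The last one was the repeat GAGAGA.
daf-15, chrIV:9386171-9386271, plus strand, summit 13 bp downstream of the gene start: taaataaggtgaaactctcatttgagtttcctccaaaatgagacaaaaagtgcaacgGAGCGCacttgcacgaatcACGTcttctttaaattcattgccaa
rict-1, chrII:13117273-13117373, minus strand, summit 513 bp upstream: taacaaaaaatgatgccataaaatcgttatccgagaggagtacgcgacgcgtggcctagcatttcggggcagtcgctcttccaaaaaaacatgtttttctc
rsks-1, chrIII:11243571-11243671, plus strand, summit 1499 bp upstream: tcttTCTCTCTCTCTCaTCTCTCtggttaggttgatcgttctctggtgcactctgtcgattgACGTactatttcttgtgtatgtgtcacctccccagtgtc
daf-2, chrIII:3037562-3037662, minus strand, summit 3234 bp downstream: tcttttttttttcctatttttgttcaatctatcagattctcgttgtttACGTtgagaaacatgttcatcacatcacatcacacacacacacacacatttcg
daf-2, chrIII:3036174-3036274, minus strand, summit 4622 bp downstream: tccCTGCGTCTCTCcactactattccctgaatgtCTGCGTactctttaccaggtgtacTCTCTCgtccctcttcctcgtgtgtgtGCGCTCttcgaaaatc
pdk-1, chrX:1323124-1323224, plus strand, summit 1830 bp downstream: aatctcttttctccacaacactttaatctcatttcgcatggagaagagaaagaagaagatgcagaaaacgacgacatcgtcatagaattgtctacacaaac
pdk-1, chrX:1319898-1319998, plus strand, summit 1396 bp upstream: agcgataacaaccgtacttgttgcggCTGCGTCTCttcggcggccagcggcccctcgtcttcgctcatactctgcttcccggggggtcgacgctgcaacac
The windows do not share one motif. The daf-15 window held ACGT as well as a match to GAGCGC, the rsks-1 window held ACGT beside several copies of GAGAGA, and the first daf-2 window had ACGT alone. The rict-1 window and the stronger pdk-1 window held none of the 8, which says only that these letters are not in these 101 bases. The second daf-2 window held 5 of the motifs, and the weaker pdk-1 window held 3, which are the overlapping ones. Those 3 fall in 1 run that the windows of daf-2 and pdk-1 share, CTGCGTCTCT, which was noticed after the windows were seen. That run was in 5.45% of all IDR windows (213) and in 0.696% of windows of the same length that end at a gene start (139).

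Over the 12 windows, 8 held at least 1 of the 8 motifs, against 63.9% of all IDR windows and 34.4% of gene-start windows. At least 1 of the 6 motifs from earlier 6-mers was in 7 windows, against 49.8% of IDR windows and 16% of gene-start windows. ACGT was in 3 of 12, where all IDR windows had 26.1% and gene-start windows 21.9%. GAGCGC was in 3 (12.4% and 1.55%), ACGCAG in 3 (14.1% and 2.81%) and GAGAGA in 3 (22.3% and 8.8%). AGACGC was in 2 (13% and 2.49%) and CGTCTC in 2 (15% and 3.85%). ACGCGC was in none of the 12 (12.3% and 1.78%), and neither was TACGTA (0.793% and 0.941%). These windows averaged 42.6% G and C, all IDR windows 44.1% and gene-start windows 33%, so base composition differs between summits and starts as well. The motif shares of these genes therefore stood near those of IDR summits in general, as far as 12 windows can show.

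The regions are compared by rank of signal, the value that the authors' caller gave each region. In the IDR list, which held 3909 regions, the signal ran from 38.7 to 2076.6 with a median of 68.4. The relaxed list of replicate 1 held 28693 regions and reached 191.1, and that of replicate 2 held 30000 regions and reached 1995.9. The relaxed lists include background regions by design, and their signals are on different scales, so a region is placed by its rank in each list. The depth is unknown, and no interval can be put on a rank or a signal.

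The strongest summits of the group were in the windows of the TOR kinase gene and of the gene of its TORC1 partner. let-363, which encodes the TOR kinase, lies at chromosome I 5245743 to 5263424 on the plus strand. Its upstream summit, at I 5244277, had a signal of 625.0 and IDR rank 97, in the top 2.48% of the list. It was 1466 bp upstream of the let-363 start in intergenic sequence, and only 6 bp upstream of mrpl-47, a mitochondrial ribosomal protein gene that ends 340 bp before let-363 on the same strand. The summit therefore lay in the promoter of mrpl-47 (here the 1000 bp before and the 200 bp after any transcript start of a protein-coding gene) and outside that of let-363. Whether the region belongs to mrpl-47 alone or to let-363 as well cannot be told from position. A region of replicate 1 held it at rank 5294 with a signal of 5.81, and a region of replicate 2 held it at rank 89 with a signal of 618.8. The second let-363 summit, at I 5261785, was 16042 bp into the gene, in intron 29 of 31. It had a signal of 156.7 and IDR rank 752, with rank 6298 in replicate 1 and 716 in replicate 2. The nearest protein-coding start was that of vep-1, 1909 bp away. Both let-363 summits thus ranked far higher in replicate 2 than in replicate 1, and both were nearer to the start of another gene.

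daf-15, at IV 9386208 to 9394979 on the plus strand, encodes Raptor, the subunit that brings substrates to TORC1. Its only IDR summit, at IV 9386221, had a signal of 475.6 and IDR rank 167, in the top 4.27%. It was the single summit inside a coding exon, 13 bp into the transcript C10C5.6c.1. The other 4 annotated transcripts start 229 or 236 bp downstream of the summit, so for those it is upstream sequence. Annotated starts in worms are often sites of trans-splicing, and transcription can begin further upstream. Replicate 2 ranked the region 151 with a signal of 476.5. No region of replicate 1 held the summit, and the nearest replicate 1 summit was 241 bp away at rank 18985. The strongest summit placed at a start of one of these genes was therefore seen in 1 of 2 replicates.

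rict-1, at II 13098239 to 13116810 on the minus strand, encodes Rictor of TORC2. Its summit, at II 13117323, was 513 bp upstream in the 672 bp between rict-1 and gfm-1, a gene for a mitochondrial translation elongation factor that is read in the opposite direction. The summit was nearer to gfm-1, at 160 bp upstream of that gene, and lay in the promoters of both. It had a signal of 121.8 and IDR rank 1004. Replicate 1 ranked it 1349 with a signal of 11.6, and replicate 2 ranked it 1016 with a signal of 109.7. It was the TOR gene summit with the closest ranks in the lists of the replicates. Which of the pair of genes the region belongs to cannot be told apart from position.

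rsks-1, at III 11245120 to 11252281 on the plus strand, encodes S6 kinase, which promotes translation and growth downstream of TORC1. It had 2 summits in the 5915 bp that separate it from aakb-2. The one at III 11243621 was 1499 bp upstream, with a signal of 74.3 and IDR rank 1786. Replicate 1 ranked it 1344 and replicate 2 ranked it 1948. The one at III 11244512 was 608 bp upstream, in the promoter window, with a signal of 45.6 and IDR rank 3237. Replicate 2 ranked it 2807, and replicate 1 had no region there and no summit within 250 bp. The summit outside the promoter was hence found in both replicates, and the one inside it in replicate 2 only.

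raga-1, the Rag GTPase gene at II 11301359 to 11302776 on the plus strand, had no IDR summit. Its best region in the pooled list ranked 7776 with a signal of 20.3, 385 bp upstream, and its best in replicate 2 ranked 7406. Replicate 1 had a region at rank 2864, with a signal of 7.74, whose summit was 463 bp downstream of the start, where neither the pooled list nor replicate 2 had a region. The nearest IDR summit was 3921 bp upstream, at IDR rank 2581, by the start of saps-1. That gene is the next one upstream, on the same strand and 98 bp from raga-1. Whether the region by saps-1 belongs to raga-1 as well cannot be told from position. At 3.42 kb the raga-1 window was the shortest of the 10.

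The insulin receptor gene had the highest count of summits in the longest window of the 10, at 48.3 kb. daf-2, at III 2994514 to 3040846 on the minus strand, had 3, all in intron 1 of 18, which is 11981 bp long. That is 0.621 summits per 10 kb, against 2.31 at pdk-1 and 2.18 at rsks-1. The first, at III 3037612, was 3234 bp into the gene, with a signal of 74.4 and IDR rank 1783, and was 69 bp upstream of the long intergenic non-coding RNA gene linc-143. The second, at III 3036224, was 4622 bp into the gene and inside linc-143, with a signal of 54.1 and IDR rank 2622. The third, at III 3030019, was 10827 bp in, with a signal of 45.6 and IDR rank 3236. It was 1219 bp upstream of the start of transcript Y55D5A.5a.1, one of 7 annotated starts of daf-2. None lay in a promoter of daf-2 or of another protein-coding gene. Replicate 1 ranked the 3 summits 1348, 838 and 1583, and replicate 2 ranked them 1866, 3589 and 4087, in the order from the gene start. All 3 were held by regions of both replicates and ranked higher in replicate 1.

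pdk-1, at X 1321344 to 1327986 on the plus strand, encodes the kinase that activates AKT-1 by phosphorylation. Its stronger summit, at X 1323174, was 1830 bp into the gene in intron 2 of 10, with a signal of 129.6 and IDR rank 938. Replicate 1 ranked it 375 with a signal of 21.5, and replicate 2 ranked it 1052 with a signal of 106.5. Its other summit, at X 1319948, was 1396 bp upstream, with a signal of 44.9 and IDR rank 3302. Replicate 1 ranked that one 368 with a signal of 21.8, and replicate 2 ranked it 6810 with a signal of 20.8. The pdk-1 summits stood highest of the 12 in replicate 1, and in replicate 2 they were far apart.

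daf-16, at I 10750498 to 10776703 on the plus strand, encodes the FOXO factor on which the pathway acts. Its IDR summit, at I 10769845, was 19347 bp into the gene in intron 6 of 11 of R13H8.1f.1, with a signal of 54.0 and IDR rank 2626. It was 1663 bp upstream of R13H8.1a.1, one of 7 annotated starts. Replicate 1 ranked it 4117 and replicate 2 ranked it 2791. The daf-16 window held 26 summits of the pooled list, of which 5 ranked 5000 or better. The 4 beyond the IDR list ranked 4383, 4472, 4623 and 4713 and were 2706, 1019, 7619 and 6630 bp into the gene. A region at the last of these places was the best of daf-16 in replicate 1, at rank 1647 with a signal of 10.4, and ranked 5679 in replicate 2. Replicate 1 had a region at rank 19372 at the one 2706 bp into the gene, and none at those 1019 and 7619 bp in. One daf-16 summit was thus in the IDR list, and of the 4 next in the pooled list only the last stood high in replicate 1.

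The other insulin genes had no IDR summit. age-1, which encodes the catalytic subunit of phosphoinositide 3-kinase, lies at II 11519328 to 11527054 on the minus strand, and its best pooled region ranked 12772 with a signal of 13.2. Its best ranks were 7217 in replicate 1 and 11394 in replicate 2, and the nearest IDR summit was 7978 bp away. akt-1, the gene of a kinase that phosphorylates DAF-16, lies at V 10248905 to 10252845 on the plus strand. It had a best pooled rank of 13882 with a signal of 12.2. Replicate 1 had akt-1 regions at ranks 3704 and 3780, 373 and 1744 bp upstream, and the best akt-1 region of replicate 2 ranked 9533. The nearest IDR summit was 2457 bp past the end of akt-1, at IDR rank 3824, by the start of rop-1. Of these genes, age-1 alone was outside the 3909 highest-ranked regions of both replicates.

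**Figure D1:**
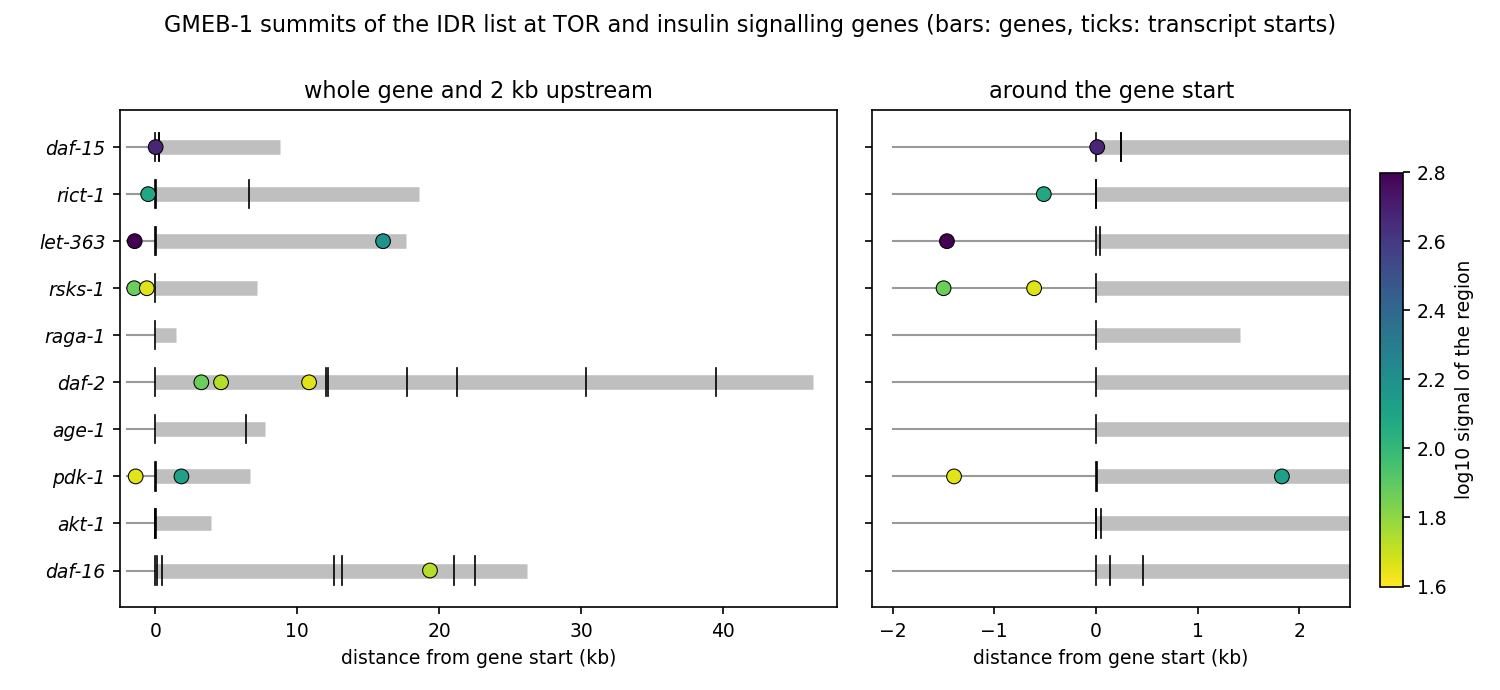
Positions of IDR summits at the 10 genes. The x axes give the distance from the gene start in kb along the direction of the gene, over the whole gene (left) and around the start (right), with grey bars for genes, thin lines for the 2 kb upstream and black ticks for annotated transcript starts. Points are summits coloured by the log10 of the region's signal. The 2 darkest points, at let-363 and daf-15, are 1466 bp upstream and 13 bp downstream of the gene start, and the 3 daf-2 points all lie in intron 1.

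Most summits of these genes were away from gene starts, and many were in introns. Of the 12, 5 were intergenic and upstream of the gene, 6 were in introns and 1 was in a coding exon, and the median distance to the gene start was 1664 bp. Introns held 20.0% of all IDR summits (780), while 2815 of the 3909 were intergenic and 74 were in coding exons. The intergenic share of these genes was thus lower than that of the whole list, and the windows here were defined to include introns. Of the 12 summits, 4 were in a promoter of some protein-coding gene, where 65.1% of all IDR summits were. Only daf-15, rict-1 and rsks-1 had a summit in their own promoter, 3 of 10 genes against 16.3% of protein-coding genes (3265). With each summit given only to the gene with the nearest start, 5 of 10 genes kept one (daf-15, rsks-1, daf-2, pdk-1 and daf-16) against 14.6% (2920). The 3 summits that were lost lay nearest to gfm-1, mrpl-47 and vep-1. More than 1 summit was seen at 4 of 10 genes (let-363, rsks-1, daf-2 and pdk-1), against 2.87% of protein-coding genes (573). That share is over windows of all lengths, while 9 of the 10 genes were in the quartile of longest windows, for which it was not computed. Neither let-363 summit was nearest to let-363. In the 2 kb upstream alone, without the gene, 4 of 10 genes had a summit (rict-1, let-363, rsks-1 and pdk-1), against 18.7% of protein-coding genes. The count of genes therefore depends on including long introns and shared intergenic sequence, which the rule does.

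The replicates differed in which of these genes stood high. Among the 3909 highest-ranked regions of replicate 1, 7 of 10 genes had a summit, against 18.2% of protein-coding genes (3643). Among those of replicate 2, 7 of 10 had one, against 22.2% (4435). The genes of the replicate 2 set were the 7 of the IDR list, and 5 of them (rict-1, rsks-1, daf-2, pdk-1 and daf-16) were also in the replicate 1 set. The IDR rank is the rank in the pooled list, which includes replicate 2. Of all IDR summits, 93.4% were in the replicate 2 set and 52.1% in that of replicate 1. That the IDR list and replicate 2 gave the same genes is therefore no independent evidence. akt-1 and raga-1 were in the replicate 1 set only, and daf-15 and let-363 in the replicate 2 set only. The genes with the strongest IDR summits were thus those absent from the top of replicate 1.

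**Figure D2:**
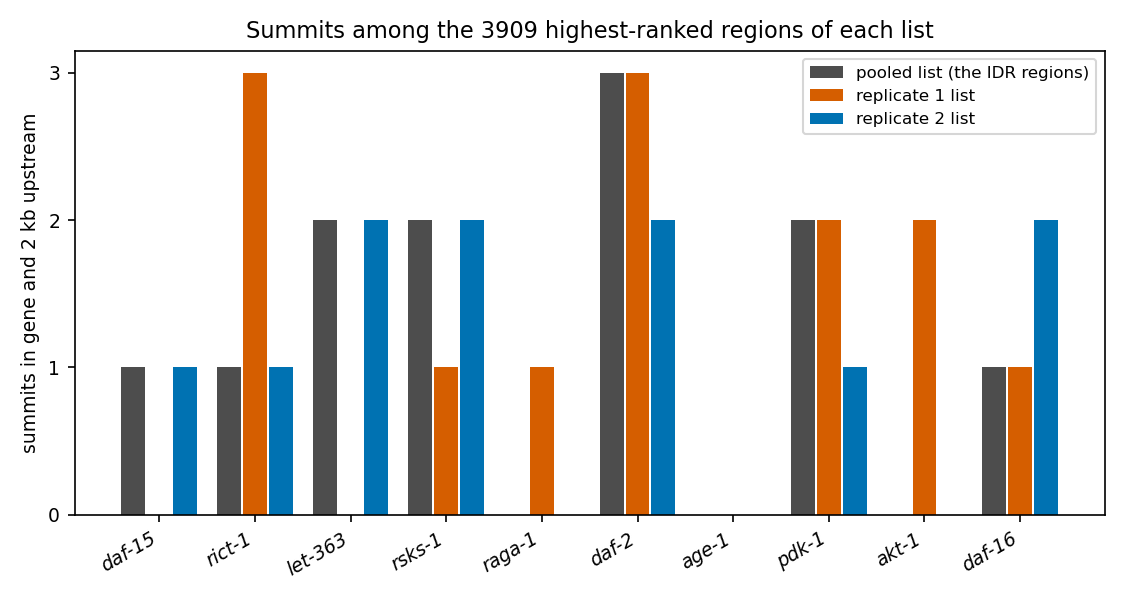
Number of summits at each gene among the 3909 highest-ranked regions of each list. The x axis gives the 10 genes, and bars stand for the pooled list (whose top regions are the IDR regions, grey), replicate 1 (orange) and replicate 2 (blue). daf-15 and let-363 have no orange bar, akt-1 and raga-1 have an orange bar only, and age-1 has none.

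Summit by summit, 10 of 12 were held by a region of the relaxed list of replicate 1, where 77.4% of all IDR summits were (3026), and 12 of 12 by a region of replicate 2 (99.3%, 3880). Among the 3909 highest-ranked regions, replicate 1 had 7 of the 12 (58.3%, against 52.1% of all IDR summits) and replicate 2 had 10 (83.3%, against 93.4%). Where both replicates held a region, 6 summits ranked higher in replicate 1 and 4 in replicate 2. Those 6 were all 3 of daf-2, both of pdk-1 and the farther one of rsks-1, and none of them was in the promoter of a protein-coding gene. The median rank of the 12 in the IDR list was 1784, and for those held it was 1348 in replicate 1 and 1907 in replicate 2, against 1955, 2002 and 1949 for all IDR summits.

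The 8 summits outside the promoters of protein-coding genes, among them the daf-2 summit just upstream of linc-143, were all held by a region of replicate 1, with a median rank of 1346 there and 2369 in replicate 2. Of the 4 in promoters, 2 were held in replicate 1, with a median rank of 3321, and the median rank in replicate 2 was 583. Over all IDR summits the medians outside promoters were 1857 in replicate 1 and 2395 in replicate 2, and in promoters 2074 and 1627. The order of the replicates by place of the summit was therefore the same in the whole list.

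**Figure D3:**
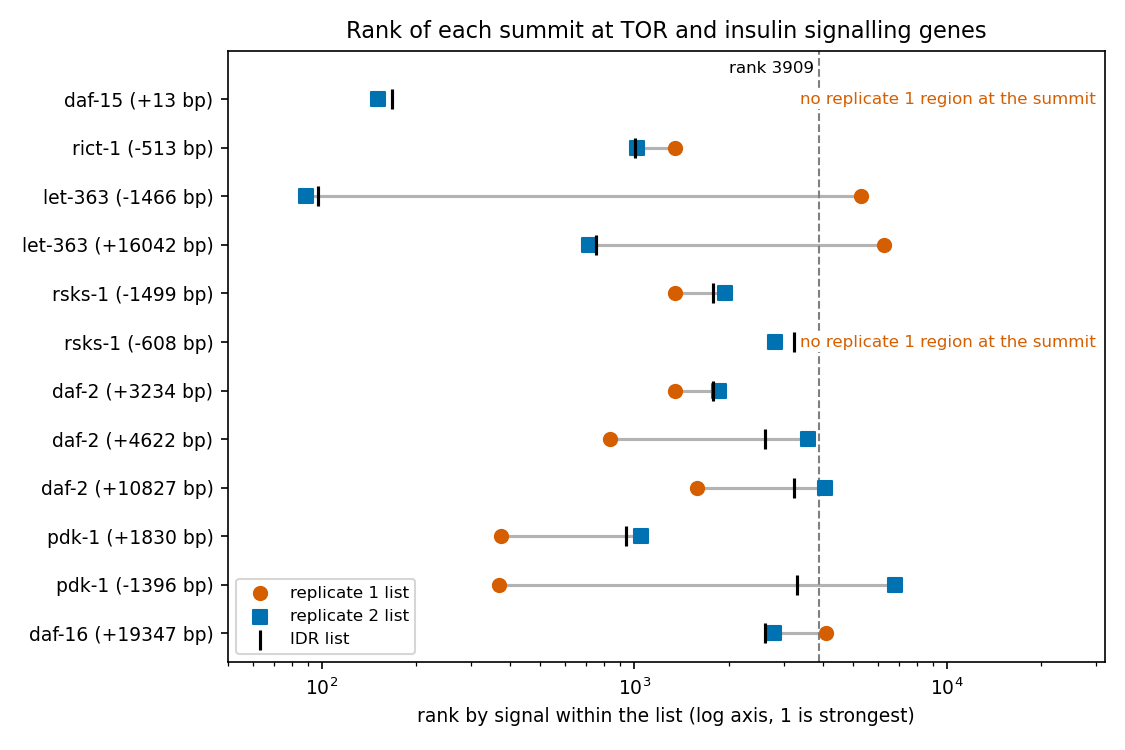
Rank of each of the 12 summits by signal in replicate 1 (orange circles), replicate 2 (blue squares) and the IDR list (black ticks). The x axis is the rank within each list on a log axis, with 1 the strongest, grey lines join the replicates, and the dashed line is rank 3909. The let-363 summits lie far to the left in replicate 2 only, the daf-2 and pdk-1 summits lie further left in replicate 1, and the daf-15 summit and the nearer rsks-1 summit have no replicate 1 region.

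Other genes of the pathways were taken from lists written by function, with earlier results of these data known, so their counts are descriptions too. Of 16 other TOR network genes, 4 had an IDR summit in the gene or 2 kb upstream, a share close to the 22.1% of all protein-coding genes. In the quartile of longest windows, 1 of 7 had one, against 31.2% of protein-coding genes there. The strongest was at rheb-1, a small GTPase gene that activates TORC1 in other animals, 282 bp upstream with a signal of 164.9 and IDR rank 707. Its ranks were 682 in replicate 1 and 717 in replicate 2. lmtr-3, a Ragulator gene, had one 60 bp upstream (98.9, rank 1294). aak-2, a catalytic subunit gene of AMP-activated kinase, had one 931 bp into the gene in an intron (97.9, rank 1309), and ragc-1, the other Rag GTPase gene, had one 134 bp upstream (58.3, rank 2398). RAGA-1 and RAGC-1 work as a pair, and of their genes the second had an IDR summit, although at rank 11179 in replicate 1. None was at aak-1, flcn-1, lmtr-2, lmtr-5, mlst-8, nprl-2, nprl-3, par-4, sesn-1, sgk-1, sinh-1 or strd-1.

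Of 20 other insulin network genes, 11 had a summit, against 22.1% of all protein-coding genes, and 8 had one in a promoter of their own, against 16.3%. In the quartile of longest windows, 6 of 10 had one, against 31.2%. The 5 strongest were at smk-1 (signal 177.2, rank 662), ftt-2 (166.9, rank 703), pptr-1 (122.6, rank 995), par-5 (121.9, rank 1003) and math-33 (107.4, rank 1167). ftt-2 and par-5 encode the worm 14-3-3 proteins, which bind phosphorylated DAF-16, SMK-1 is a cofactor of DAF-16, PPTR-1 is a phosphatase subunit that acts on AKT-1 and MATH-33 is a deubiquitinase of DAF-16. The summits at smk-1, par-5 and math-33 were nearer to the start of another gene (vps-60, M117.3 and erfa-3). The other genes with a summit were eak-4, sir-2.1, aap-1, daf-18, akt-2 and shc-1, so akt-2 had one where akt-1 had none. None was at cst-1, eak-3, eak-6, eak-7, hcf-1, ist-1, jnk-1, rle-1 or sdf-9. Of the 11, 5 had their strongest summit nearest to their own start.

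Of 8 genes for transcription factors that act downstream of these pathways, 7 had a summit (87.5%, against 22.1% of all protein-coding genes), and 4 had one in their own promoter, against 16.3%. The 5 strongest were at skn-1 (148.8, rank 802, intronic), hlh-30 (141.2, rank 846, intronic), mml-1 (99.3, rank 1287, 1946 bp upstream), pqm-1 (70.6, rank 1893) and daf-12 (54.4, rank 2605, intronic). SKN-1 is the worm Nrf factor, HLH-30 the TFEB relative that acts on autophagy genes, and DAF-12 a nuclear hormone receptor of dauer formation. The hlh-30 summit ranked 20111 in replicate 1 and 783 in replicate 2. mxl-2 and pha-4 also had a summit, each in no region of replicate 1, and hsf-1 had none. The mxl-2 summit was nearer to the start of ubc-20. Among the highest-ranked regions of replicate 1 alone, 5 of the 8 genes had a summit, against 18.2% of protein-coding genes. Of the 8 genes, 6 were in the quartile of longest windows, and 5 of those 6 had a summit, against 31.2% of protein-coding genes there.

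Of 12 genes commonly used as readouts of DAF-16, 1 had a summit (8.33%, against 22.1% of all protein-coding genes). It was icl-1, which encodes an enzyme of the glyoxylate cycle. That summit was 14 bp past the start with a signal of 47.0 and IDR rank 3123, and it was in no region of replicate 1. Without replicate 2, among the highest-ranked regions of replicate 1 alone, 3 of the 12 genes had a summit, against 18.2% of protein-coding genes. None was at ctl-2, dod-3, fat-7, hsp-12.6, hsp-16.2, ins-7, lea-1, lys-7, mtl-1, scl-1 or sod-3. Of these 12 genes, 2 were in the quartile of longest windows, and 1 of the 2 had a summit, against 31.2% of protein-coding genes there. Most of the 12 were in the 2 quartiles of shortest windows, where 17.6% and 16.9% of protein-coding genes had a summit. Differences between these lists were not tested, and lengths of windows differ among them.

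**Figure D4:**
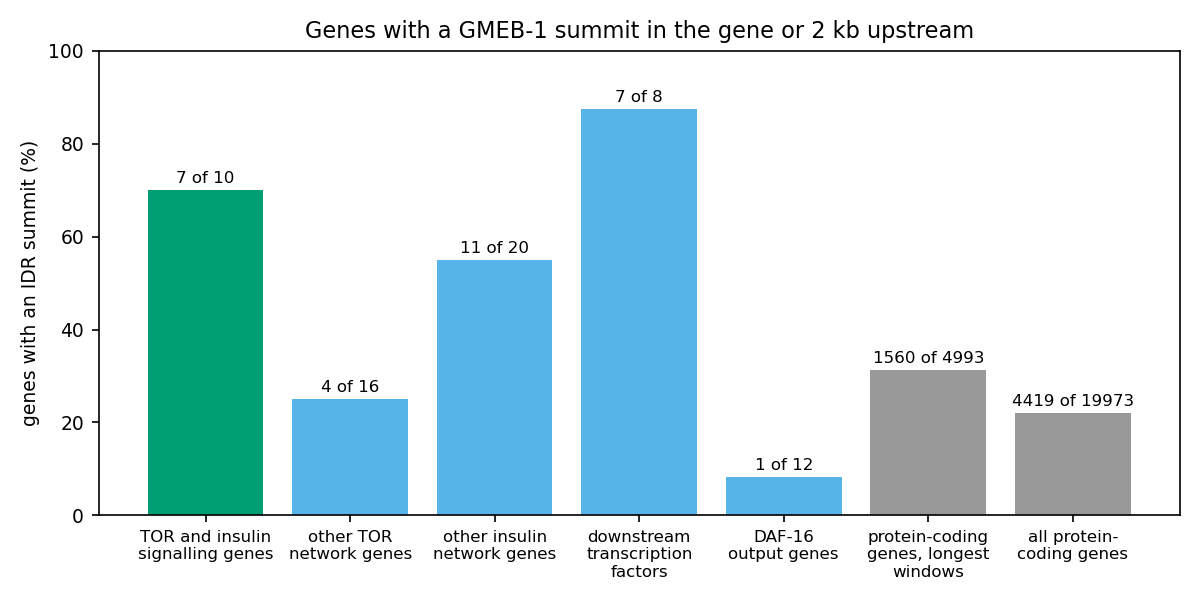
Share of genes with an IDR summit in the gene or 2 kb upstream, in percent on the y axis, with the counts printed over each bar. The green bar is the 10 TOR and insulin signalling genes (7), blue bars are the lists of other genes, from 8.33% of DAF-16 output genes to 87.5% of downstream transcription factors, and grey bars are protein-coding genes with the longest windows (31.2%) and all protein-coding genes (22.1%).

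Counted over the relaxed lists, of which the IDR regions are a small part, summits were unevenly spread among these genes. In the pooled relaxed list the 10 windows held 89 summits, or 0.541 per kb, against 0.318 per kb over all protein-coding windows. Replicate 2 gave 90 summits and 0.547 per kb against 0.317. Replicate 1 gave 58 summits and 0.353 per kb against 0.304. daf-2 held 29 of the pooled summits and daf-16 held 26, and the other 8 genes together held 34, or 0.387 per kb. By gene the pooled density ran from 0.0928 per kb at daf-15 to 0.922 per kb at daf-16, and 4 genes (daf-15, rict-1, raga-1 and age-1) were below the density over all protein-coding windows. These lists include background regions, so such a count is one of candidate regions and not of binding.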

How the data were processed

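Per a readme that came with the deposited files, the authors called a relaxed region list for each replicate from its alignments and a control, a pooled list from both, and an IDR list from these. The relaxed lists include background regions. No caller, aligner, IDR threshold or depth was found in the sources used here. The deposited signal is a value of the authors' caller for each region and served only for ranks and description within a list. The deposited −log10 q values were not used to rank.

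Lists in ce11 were analysed, and those in ce10 were not used. Summits were placed on Ensembl release 115 genes, and sequences were read from the RefSeq genome of WBcel235. Genes, lists and motifs were chosen with earlier results of these data known. The text names the 10 genes, genes whose body or promoter holds one of their summits, and the 5 strongest of each list. Genes given as nearest starts or neighbours, and list genes named beyond those 5, fall outside that rule and were named after their values were seen. No test was run, because 1 group of 2 replicates allows no comparison. The alternatives were other windows and promoters, the 1954 strongest regions, region overlap, the nearest start, each replicate's own list, and replicate summits within 250 bp. The window counts and motif searches were tested on simulated positions first. Python 3.11.15, numpy 2.4.6, pandas 2.3.3 and matplotlib 3.10.9 were used.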

Additional observations from a re-analysis of the deposited data

How the results depend on the processing

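The count of genes with a summit is given with the share of all protein-coding genes under the same setting. It was 7 with 1 kb upstream (18.3%), with region overlap (23.3%), in replicate 1 alone (18.2%) and in replicate 2 alone (22.2%), and 8 with 5 kb, adding raga-1 (30.6%). The replicate 2 setting shares most of its regions with the IDR list and is no independent check. The count was 6 among the 1954 strongest regions (13.6%), which left 7 summits, and 5 by nearest start (14.6%). It was 4 in the 2 kb upstream without the gene body (18.7%), where 5 summits were left. Genes with a summit in their own promoter numbered 1 with 500 and 100 bp (daf-15, against 13.3% of all genes) and 7 with 2000 and 500 bp (against 20.8%). They numbered 2 among the 1954 strongest regions (daf-15 and rict-1, against 10.2%). In replicate 1 alone they numbered 2 (akt-1 and rict-1, against 11.8%), and in replicate 2 alone 3 (daf-15, rict-1 and rsks-1, against 16.5%). Of the 20 insulin network genes, 6 had a summit by nearest start (14.6%), 8 with 1 kb upstream (18.3%) and 9 in replicate 1 alone (18.2%). Of the 8 downstream transcription factor genes, 3 had one in the 2 kb upstream without the gene body (18.7%). Among the 1954 strongest regions 4 of the 8 had one (13.6%), and in replicate 1 alone 5 did (18.2%). Of the 12 DAF-16 output genes, 0 had one upstream only (18.7%) or among the 1954 strongest (13.6%). With region overlap 2 of the 12 had one (23.3%), in replicate 1 alone 3 (18.2%) and in replicate 2 alone 1 (22.2%). Within 250 bp, replicate 1 placed daf-15 at rank 18985. The main limits are 2 replicates, unknown depth, a tagged transgene, whole animals, and long windows that several genes can share, so a summit in a window is a position and not a regulated gene.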
